A study of Homo sapiens with 9 samples.

Results

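The immediate early and AP-1 genes examined here are FOS, FOSL1, FOSL2, JUN, JUNB, EGR1, IER2, IER3, ATF3 and MYC. They were taken from the table by symbol and make up 10 of the 60606 genes in an RNA sequencing table of U87 glioblastoma cells, and all 10 passed the filter on low values that left 22909 genes for testing. The table holds 9 libraries, 3 from each of 3 lines. U87 is the parental human glioblastoma line, grown in DMEM with 10% fetal bovine serum. GSCs are stem cells derived from U87, kept without serum on B27, EGF (20 ng/ml) and bFGF (20 ng/ml), and irradiated 13 times with 5 Gy. Diff are cells differentiated from those irradiated GSCs in DMEM with 10% serum and then selected from clonal communities. All 3 lines come from 1 starting line, both irradiated lines share the radiation history, and no unirradiated stem cell line was among the libraries used here. Serum was present for U87 and Diff and absent for GSCs, and EGF and bFGF were added only for GSCs. Medium and line therefore cannot be told apart in the comparisons with GSCs. The labels do not say that the 3 libraries of a line came from separate cultures, so the p-values measure the spread between libraries, which may be technical.

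Immediate early genes are switched on within minutes of a stimulus such as serum, a growth factor or stress, without new protein synthesis, through signals that run from RAS and the MAP kinases to factors already bound at their promoters. Several encode transcription factors. FOS and JUN proteins pair to form AP-1, which binds DNA at sites with the core TGAGTCA. FOSL1 and FOSL2 are FOS relatives with longer-lived transcripts, JUNB is a JUN relative, and EGR1 is a zinc finger factor. ATF3 is a stress-induced relative of the same leucine zipper class, MYC drives growth and ribosome synthesis, IER3 modulates survival and IER2 is a small nuclear protein. FOSL1 and AP-1 activity are known for invasive, mesenchymal glioblastoma.

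Levels are given as TPM (reads divided by gene length and scaled to the same total in each library), so that they can be compared between genes. In the libraries 25.9 to 31.8% of TPM came from mitochondrial genes and 5.73 to 9.79% from the small cytoplasmic RNA gene RN7SL1, and 31832 to 33079 genes were above 0. Of 11 glial and stem cell markers, 5 had a mean over 1 TPM in each line. Their summed level was 2052 to 2114 TPM in U87, 1532 to 1817 in GSCs and 904 to 961 in Diff, mostly VIM and CD44, whereas the stem cell factor SOX2 averaged 0.0383 TPM in U87, 0.879 in GSCs and 0.153 in Diff and the astrocyte channel AQP4 was at 0 in U87 and GSCs. The stem cell markers FABP7 (0.731 ± 0.228, 4.91 ± 0.796 and 2.86 ± 0.378 TPM in U87, GSCs and Diff) and PROM1 (means of 0.171, 0.507 and 0.0236 TPM) were, like SOX2, highest in GSCs. FABP7 passed the test in GSCs against U87 (log2 fold change 1.77, limma adjusted p = 2.66e-05), and SOX2 and PROM1, below 1 TPM in every library, were under the filter and not tested. NES, another marker of the list, was highest in U87, at 33.0 ± 2.22, 22.6 ± 0.812 and 13.5 ± 1.02 TPM. It was lower in GSCs than in U87 (log2 fold change −0.53, limma adjusted p = 0.00047). Of 6 markers tested, 1 was higher and 3 lower in GSCs against U87, beside 25.3 and 23.3% of all genes tested. For the genes examined here, GSCs replicate 3 stood apart: 9 of the 10 were lower in it than in both other GSCs libraries, which held for 30.9% of all genes tested, and results that rest on this library are given with and without it.

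FOSL1 was the most abundant of the 10 genes in every library, at 920 to 1608 TPM, and ranked 35 among all genes of the table in U87, 53 in GSCs and 45 in Diff. FOS, ATF3 and IER2 were the 3 least abundant in U87 and Diff, with means from 4.96 to 13.5 TPM. The order in U87 was FOSL1, JUN, IER3, FOSL2, JUNB, MYC, EGR1, IER2, ATF3 and FOS, where IER3 and FOSL2 had overlapping library values, as did MYC and EGR1, and ATF3 and FOS. In GSCs IER3 moved to the second place at 365 ± 56.5 TPM (SD, n = 3), FOS and ATF3 moved above IER2, and IER2 was the lowest at 11.996 ± 2.93 TPM. In Diff IER3, JUN and FOSL2 were close, at 167, 166 and 154 TPM, and overlapped in their libraries. The 10 genes differed widely in how far they moved between lines: the range of the 3 line means on the log2(TPM + 1) scale was 2.40 for FOS, 2.01 for ATF3, 1.11 for IER3, 0.94 for MYC and 0.87 for EGR1, and from 0.18 for IER2 to 0.57 for FOSL1 among the other 5.

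GSCs held more FOS, ATF3, MYC, IER3 and EGR1 transcript than parental U87, and less FOSL1, FOSL2 and JUN. The comparison of GSCs with U87 asked how the irradiated stem cells differ from the parental line. Of the 10 genes, 5 were higher and 3 lower past the test, which means an adjusted p under 0.05 in a limma fit over all genes tested, and only JUNB and IER2 did not pass. Over all genes tested 48.6% passed, 25.3% higher and 23.3% lower. FOS and ATF3 were also more than 2-fold higher, where 9.52% of all genes were and 7.53% were as far below, and none of the 10 was 2-fold lower. The median log2 fold change was 0.57 for the 10 genes and 0.017 for all genes. Without GSCs replicate 3, 4 genes were 2-fold higher, because MYC (1.06) and IER3 (1.06) then passed that size.

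Diff held less FOSL1, FOSL2 and JUN transcript than U87 and more EGR1 and MYC. FOS, ATF3, IER3, JUNB and IER2 did not differ past the test, with intervals given beside each gene. This comparison set serum-grown descendants of the irradiated cells against the serum-grown parental line. Here 2 genes were higher and 3 lower past the test. Of all genes tested 39.4% passed, 18.9% higher and 20.5% lower, so that 5 of 10 lies near the background. None of the 10 reached 2-fold, where 5.92% of all genes were 2-fold higher and 6.36% 2-fold lower. The median log2 fold change was −0.17 for the 10 genes and −0.036 for all genes.

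Diff held less FOS, ATF3, IER3 and MYC transcript than the GSCs they came from, and none of the 10 genes was higher past the test. JUNB was also lower, but passed narrowly (limma adjusted p = 0.043) and lost the call under 15 of 19 other ways of processing. The comparison of Diff with GSCs spans differentiation in serum, the absence of EGF, bFGF and B27, and clonal selection, which cannot be told apart. The 5 lower genes stand beside 19.8% of all genes tested that were lower, 15% that were higher and 34.8% that passed in either direction. FOS, ATF3 and IER3 were more than 2-fold lower, against 5.36% of all genes, and 2.66% of all genes were 2-fold higher. The median log2 fold change was −0.31 for the 10 genes and −0.056 for all genes. The 3 comparisons share libraries in pairs, so their values are not independent of each other. The libraries of 2 lines did not overlap for 8 of the 10 genes between GSCs and U87, for 6 between Diff and U87 and for 5 between Diff and GSCs, while 55.8%, 55.2% and 46.7% of all genes tested had separate libraries.

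**Figure D1:**
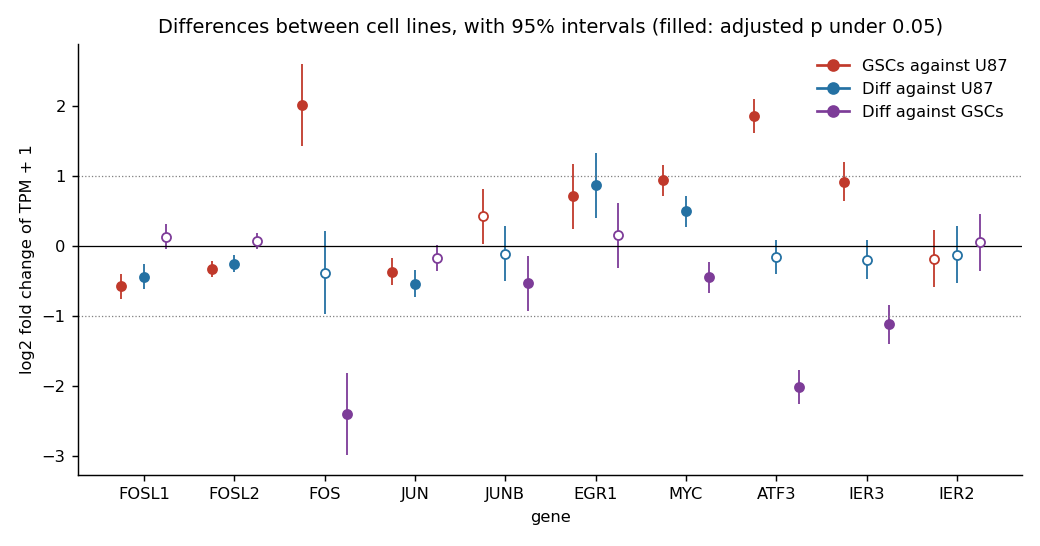
Log2 fold change of TPM + 1 with its 95% interval for each gene in the 3 comparisons, filled where the adjusted p was under 0.05, with dotted lines at a 2-fold change. FOS and ATF3 lie near 2 for GSCs against U87 and near or below −2 for Diff against GSCs, whereas FOSL1, FOSL2, JUN and IER2 stay within 0.6 of 0.

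Promoter sequence is shown for genes with different patterns, FOS and ATF3 (highest in GSCs), JUN (lower in both irradiated lines), JUNB (unsteady in GSCs) and EGR1 (higher in both irradiated lines), so that their control elements can be set side by side. The sequences are from RefSeq (GRCh38.p14), read 5′ to 3′ on the gene's strand, and capitals mark the motifs found on either strand. Windows of 300 bases, 250 before and 50 from the start site, were held for 7 of the 10 genes, 8 windows in all since ATF3 has a pair, and not for FOSL1, IER3 or MYC. TGACG, the core of the cyclic AMP response element that CREB and ATF proteins bind, was in 6 of the 8 windows and in 24.6% of all 35116 windows. In EGR1 it reads CGTCA because it lies on the other strand.
FOS, chr14:75278654-75278773, plus strand: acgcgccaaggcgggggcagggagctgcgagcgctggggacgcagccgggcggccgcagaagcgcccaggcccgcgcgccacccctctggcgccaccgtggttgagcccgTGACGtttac
EGR1, chr5:138465329-138465448, plus strand: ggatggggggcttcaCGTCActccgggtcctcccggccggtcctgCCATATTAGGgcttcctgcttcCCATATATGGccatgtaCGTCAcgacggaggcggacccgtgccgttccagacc
JUNB, chr19:12791341-12791465, plus strand: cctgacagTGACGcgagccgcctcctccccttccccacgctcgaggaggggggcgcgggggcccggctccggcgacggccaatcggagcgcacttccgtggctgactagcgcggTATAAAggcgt
ATF3, chr1:212565214-212565333, plus strand: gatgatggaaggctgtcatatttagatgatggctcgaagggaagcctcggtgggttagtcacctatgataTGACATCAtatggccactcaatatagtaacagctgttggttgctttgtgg
JUN, chr1:58784099-58784122, minus strand: ccttggggTGACATCAtgggctat

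EGR1 carries a pair of CArG boxes, the sites of serum response factor (SRF), that begin 105 and 83 bases before its start site, and it was the 1 of the 8 windows with that motif, which 1.29% of all windows hold. JUN and ATF3 share the octamer TGACATCA, known in the JUN promoter as a site of JUN and ATF2, which begins 67 bases before the start of JUN and 123 before the upstream start of ATF3 and is in 2.61% of all windows. The JUN stretch is cut short because it lies in the gene's first exon in GENCODE 29. TATAAA was found in 3 of 8 windows, 33 bases before the start of FOS, 31 before that of JUNB and 230 before the downstream start of ATF3 (11.5% of all windows). TGAGTCA was found in 1 of 8, that of FOSL2 (4.95% of all windows), and the MYC site CACGTG in 0 of 8 (7.26%). These are matches of letters in these windows and were not tested as sites. Sequence more than 250 bases before the start was not searched, so a gene without a motif here, such as FOS for the CArG box, may carry it further upstream. FOS and EGR1 share TGACG but differed in their levels across lines, as the next values show.

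FOSL1 (GRCh38, chromosome 11, 65892049 to 65900573, minus strand) encodes FRA-1, the AP-1 subunit of migrating and transformed cells. It stood at 1608, 1561 and 1493 TPM in the U87 libraries, 1100, 1120 and 920 in GSCs and 1127, 1162 and 1157 in Diff. Every U87 library lay above every library of the irradiated lines. The log2 fold change was −0.57 ± 0.079 (SE, limma adjusted p = 0.000358) for GSCs against U87 and −0.44 ± 0.079 (limma adjusted p = 0.00236) for Diff against U87. Diff lay above GSCs in every library, but the difference of 0.14 did not pass (limma adjusted p = 0.212, 95% interval −0.041 to 0.32).

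FOSL2 (chromosome 2, 28392448 to 28417312, plus strand), which encodes FRA-2, moved the same way on a smaller scale. Its libraries were at 186, 177 and 186 TPM in U87, 141, 152 and 146 in GSCs and 159, 156 and 147 in Diff. U87 was again above all libraries of both other lines, which overlapped. The log2 fold changes were −0.32 for GSCs (limma adjusted p = 0.000817) and −0.25 for Diff (limma adjusted p = 0.00485) against U87, and 0.077 for Diff against GSCs (limma adjusted p = 0.287, interval −0.040 to 0.19).

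FOS (chromosome 14, 75278774 to 75282230, plus strand), whose transcript is the classic short-lived response to growth factors, went the other way in GSCs. U87 libraries held 7.53, 7.65 and 5.01 TPM, GSCs 31.8, 40.5 and 20.9, and Diff 3.65, 5.32 and 5.93. The lowest GSCs library, replicate 3, was still above every U87 and Diff library, while U87 and Diff overlapped. GSCs were higher than U87 by 2.02 ± 0.26 on the log2 scale (limma adjusted p = 0.00022, 95% interval 1.44 to 2.61), a 4.07-fold change of TPM + 1, and Diff were lower than GSCs by 5.27-fold (log2 fold change −2.40, limma adjusted p = 0.000187). The added 1 makes these folds smaller for a low gene: the mean TPM of GSCs was 6.26 times that of Diff. Diff against U87 gave −0.37 (limma adjusted p = 0.289, interval −0.96 to 0.21), so a fall of up to nearly 2-fold lies inside the interval. FOSB, the FOS relative that is not among the 10, also passed in GSCs against U87 at a lower level (3.40 ± 0.736 against 1.16 ± 0.261 TPM, log2 fold change 1.02, limma adjusted p = 0.00104).

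FOSL1 made up most of the FOS family transcript in all lines. Its share of the summed TPM of FOS, FOSB, FOSL1 and FOSL2 was 89.0 ± 0.398% in U87, 85.3 ± 0.900% in GSCs and 87.7 ± 0.469% in Diff (SD, n = 3). FOSL2 took 10.5, 11.97 and 11.8%. The share of FOS was 0.384 ± 0.0761% in U87, 2.50 ± 0.579% in GSCs and 0.379 ± 0.0872% in Diff. FOSL1 was 27.6 to 44.0 times as abundant as FOS in the GSCs libraries and 195 to 309 times in those of U87 and Diff. The family sum fell with FOSL1, from 1745 ± 58.7 TPM in U87 to 1227 ± 121 in GSCs and 1309 ± 16.3 in Diff, and U87 did not overlap either line.

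**Figure D2:**
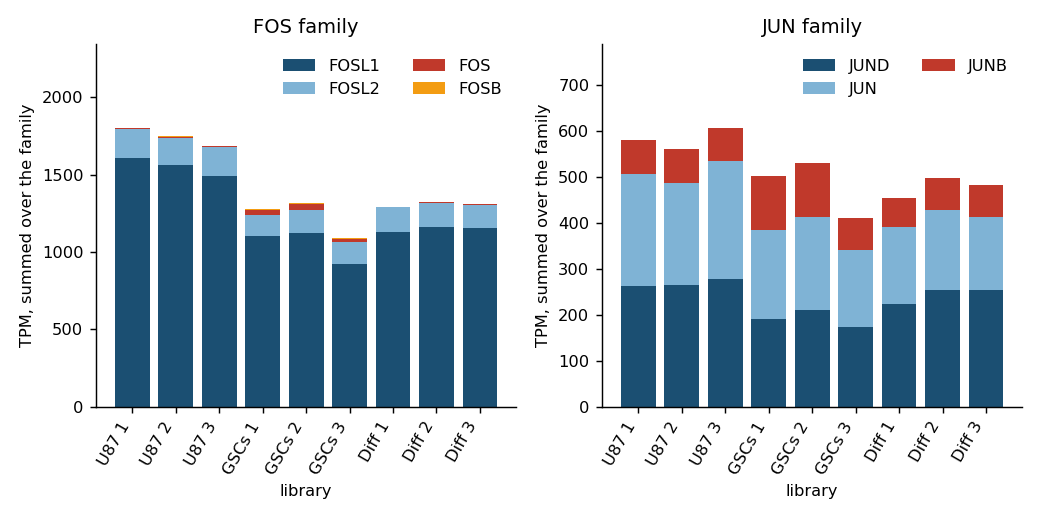
Summed TPM of the FOS family (left) and the JUN family (right) in each of the 9 libraries, stacked by gene from 0. FOSL1 fills 84.5 to 89.4% of every FOS family bar, while JUN and JUND share most of the JUN family and JUNB takes its widest part in GSCs, 17.1 to 23.5%.

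JUN (chromosome 1, 58780788 to 58784327, minus strand), a partner with which FOS proteins bind DNA, was lower in both irradiated lines. Its libraries were at 245, 223 and 256 TPM in U87, 193, 203 and 167 in GSCs and 167, 173 and 158 in Diff. U87 stood above both lines without overlap, and GSCs and Diff overlapped. The log2 fold changes against U87 were −0.36 ± 0.083 for GSCs (limma adjusted p = 0.00619) and −0.53 ± 0.083 for Diff (limma adjusted p = 0.000983). Between Diff and GSCs the difference was −0.17 (limma adjusted p = 0.152, interval −0.36 to 0.020), and without GSCs replicate 3 it was −0.25 and passed (limma adjusted p = 0.0215).

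JUNB (chromosome 19, 12791496 to 12793315, plus strand), a JUN relative that weakens JUN in some settings, gave a result that turned on 1 library. U87 libraries lay at 73.6, 72.9 and 72.6 TPM and Diff at 63.1, 70.7 and 70.1, while GSCs were at 118, 116 and 70.1. GSCs replicate 3 thus fell to the level of Diff and below U87. GSCs against U87 gave 0.43 ± 0.17 (limma adjusted p = 0.0723), and without GSCs replicate 3 the difference was 0.67 (limma adjusted p = 4.32e-05). Diff against GSCs passed narrowly at −0.53 (limma adjusted p = 0.043), but 15 of 19 other ways of processing put it over the threshold, with adjusted p up to 0.135. Diff against U87 gave −0.10 (limma adjusted p = 0.675, interval −0.50 to 0.29), although each Diff library lay below each U87 library. Of the JUNB exonic bases 14.2% lie under HOOK2 on the opposite strand, which was at 4.31 to 6.40 TPM, and the strand setting of the counting is not given in the sources used here.

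The JUN family summed to 582 ± 23.5 TPM in U87, 480 ± 62.3 in GSCs and 478 ± 22.3 in Diff, so that FOS family transcript exceeded JUN family transcript in each line. JUND, which is expressed steadily in many cells and is not among the 10, was the most abundant of the family in the mean of every line, with 46.0 ± 1.01% in U87, 40.0 ± 2.18% in GSCs and 50.9 ± 1.67% in Diff. JUN took 41.5, 39.2 and 34.8%. The JUNB share was 12.6 ± 0.534% in U87, 20.8 ± 3.31% in GSCs and 14.2 ± 0.319% in Diff, and every GSCs library was above every library of the other lines.

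EGR1 (chromosome 5, 138465490 to 138469315, plus strand), the gene with the CArG boxes shown earlier, was higher in both irradiated lines than in U87. Its libraries stood at 63.9, 70.3 and 52.6 TPM in U87, 122, 119 and 72.6 in GSCs and 97.8, 118 and 128 in Diff. The lowest value of either irradiated line was GSCs replicate 3, just above the highest U87 library. Diff were higher by 0.87 ± 0.20 (limma adjusted p = 0.00908) and GSCs by 0.71 ± 0.20 (limma adjusted p = 0.0184). The call in GSCs was lost when U87 replicate 3 (adjusted p = 0.0658), GSCs replicate 1 (0.0652) or GSCs replicate 2 (0.0622) was left out, and without GSCs replicate 3 the difference was 0.96 in the same limma fit. Diff and GSCs overlapped, with a difference of 0.16 (limma adjusted p = 0.601, interval −0.31 to 0.62). EGR1 thus did not share the GSCs pattern of FOS: in Diff, where FOS was at 4.96 ± 1.18 TPM, EGR1 was at 114 ± 15.3.

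IER3 (chromosome 6, 30743199 to 30744554, minus strand), a gene induced by growth factors, stress and NF-kB that modulates cell survival, was about 2-fold higher in GSCs. U87 libraries held 186, 178 and 210 TPM, GSCs 406, 389 and 301, and Diff 187, 156 and 159. All GSCs libraries lay above all others, and U87 and Diff overlapped. The log2 fold change was 0.92 ± 0.12 for GSCs against U87 (limma adjusted p = 0.000294) and −1.11 ± 0.12 for Diff against GSCs (limma adjusted p = 0.000218). Diff against U87 gave −0.19 (limma adjusted p = 0.255, interval −0.47 to 0.088). Of its exonic bases 26.5% lie under IER3-AS1 on the other strand, which was at 0 to 1.25 TPM.

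IER2 (chromosome 19, 13150415 to 13154908, plus strand) showed no difference that passed. Its libraries were at 14.1, 11.6 and 14.8 TPM in U87, 12.97, 14.3 and 8.70 in GSCs and 11.3, 14.2 and 11.5 in Diff, with all lines overlapping. The limma log2 fold changes were −0.18 for GSCs (adjusted p = 0.445, interval −0.59 to 0.23) and −0.12 for Diff (adjusted p = 0.635, interval −0.53 to 0.29) against U87, and 0.058 between Diff and GSCs (adjusted p = 0.836, interval −0.35 to 0.46). Changes of up to about 1.5-fold were thus not excluded by these intervals. Of the IER2 exonic bases 30.8% lie under another gene, AC011446.2, for which no level was available. The ratio of IER3 to IER2 was 27.2 to 34.6 in the GSCs libraries and 11.02 to 16.5 in those of U87 and Diff.

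ATF3 (chromosome 1, 212565334 to 212620777, plus strand), which is induced by many stresses and can repress or activate, had the smallest adjusted p of the 10 genes in both comparisons with GSCs. Its levels were 7.21, 6.99 and 8.31 TPM in U87, 30.7, 33.0 and 25.9 in GSCs and 6.44, 7.03 and 6.48 in Diff. GSCs were separate from both other lines, which overlapped. GSCs were higher than U87 by 1.86 ± 0.11 on the log2 scale (limma adjusted p = 1.74e-06), a 3.62-fold change of TPM + 1, and Diff were lower than GSCs by 4.02-fold (log2 fold change −2.01, limma adjusted p = 4.13e-06). Diff against U87 gave −0.15 (limma adjusted p = 0.305, interval −0.39 to 0.092).

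Genes that ATF3 is known to be induced with, those of the ATF4 pathway and the unfolded protein response, were mostly lower in both irradiated lines. Against U87, 13 of 16 such genes tested were lower and 3 higher in GSCs, and 10 were lower and 2 higher in Diff. The median log2 fold changes were −1.07 and −0.81, against 0.017 and −0.036 for all genes. Among all genes tested 23.3% were lower and 25.3% higher in GSCs, and 20.5% lower and 18.9% higher in Diff. TRIB3, a pseudokinase that ATF4 induces, stood at 35.4 ± 5.87 TPM in U87, 2.92 ± 0.380 in GSCs and 5.30 ± 1.12 in Diff. CHAC1, which degrades glutathione, fell from 38.6 ± 14.3 TPM to 3.11 ± 1.53 in GSCs and 4.60 ± 0.501 in Diff, and SESN2, a stress inhibitor of mTORC1, from 147 ± 13.5 to 18.8 ± 3.10 and 43.6 ± 2.71. CEBPD, a leucine zipper factor, was 1 of the 3 higher genes in GSCs and lower again in Diff (11.8 ± 0.521, 29.5 ± 1.78 and 14.3 ± 0.947 TPM; Diff against GSCs −0.997, limma adjusted p = 2.67e-05). The others were CEBPB (148 ± 10.4, 291 ± 20.1 and 238 ± 35.7 TPM) and PPP1R15A (68.1 ± 9.74, 90.3 ± 14.9 and 77.4 ± 2.37 TPM). Their log2 fold changes in GSCs against U87 were 0.98 and 0.40 (limma adjusted p = 0.000113 and 0.0366). CEBPB was also higher in Diff than in U87 (0.67, limma adjusted p = 0.00135). Between Diff and GSCs, 6 of the 16 were higher and 3 lower, with a median of 0.22 (15% higher, 19.8% lower and a median of −0.056 for all genes).

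**Figure D3:**
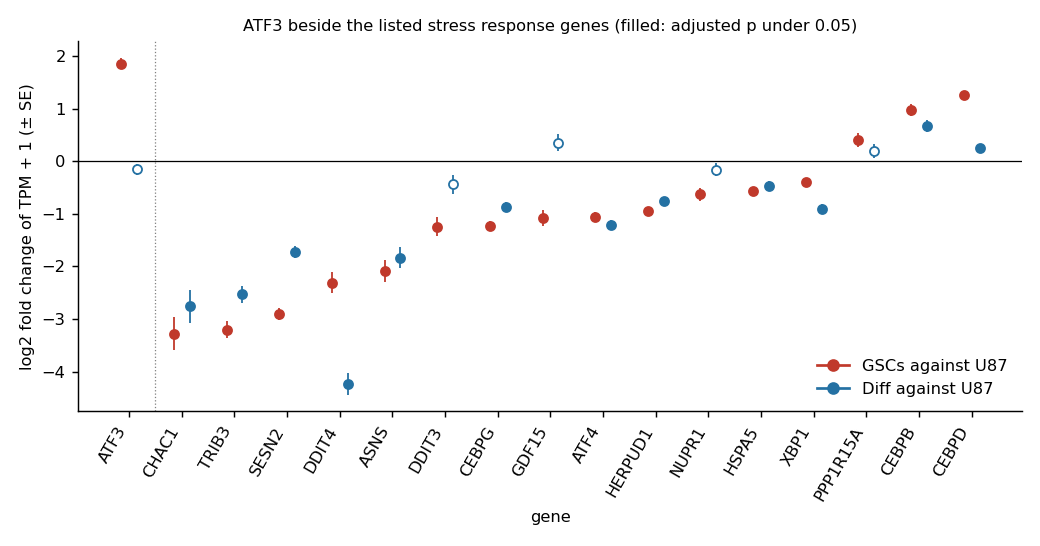
Log2 fold change of TPM + 1 (± SE) against U87 for ATF3, left of the dotted line, and 16 stress response genes, in GSCs and in Diff, filled where the adjusted p was under 0.05. ATF3 is at 1.86 in GSCs and −0.15 in Diff, while 13 of the 16 other genes are lower past the test in GSCs.

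MYC (chromosome 8, 127735434 to 127741434, plus strand), the growth-promoting factor that serum and mitogens induce, was the 1 member of 10 that passed the test in all 3 comparisons. U87 libraries were at 70.1, 66.2 and 64.7 TPM, Diff at 94.8, 100.03 and 91.4, and GSCs at 143, 140 and 110. No line overlapped another, which also held for FOSL1. The log2 fold changes were 0.94 ± 0.097 for GSCs against U87 (limma adjusted p = 5.96e-05), 0.50 ± 0.097 for Diff against U87 (limma adjusted p = 0.00327) and −0.44 ± 0.097 for Diff against GSCs (limma adjusted p = 0.00794).

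Among 13 tested partners and regulators of MYC, 3 rose and 5 fell between U87 and GSCs, 3 rose and 4 fell between U87 and Diff, and 2 rose and 3 fell between GSCs and Diff. The second of these counts fell from 7 to 4 without U87 replicate 3, Diff replicate 1 or Diff replicate 3. Across all genes tested 25.3% rose and 23.3% fell, 18.9 and 20.5%, and 15 and 19.8%, in the same order of comparisons. PIM1, a kinase that cooperates with MYC, went with it: 7.75 ± 0.967 TPM in U87, 32.4 ± 0.739 in GSCs and 20.6 ± 0.613 in Diff. MXD1 and MXD3, which compete with MYC for its partner MAX, were lower in both lines, MXD1 at 8.26 ± 0.740 TPM in U87, 4.34 ± 0.839 in GSCs and 4.25 ± 0.318 in Diff. MXI1 and MNT of the same list were higher in GSCs than in U87 (log2 fold changes 0.45 and 0.67, limma adjusted p = 0.00383 and 0.0041). In Diff against U87 MNT was again higher (0.44, limma adjusted p = 0.0356) and MXI1 lower (−0.77, limma adjusted p = 0.000212).

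Known MYC targets, mostly genes of ribosome synthesis, did not rank the lines as MYC did. Of 24 tested, 5 rose and 10 fell in GSCs against U87 (median −0.15), 11 rose and 2 fell in Diff against U87 (median 0.25), and 16 rose and 2 fell in Diff against GSCs (median 0.34). Beside them, 25.3% of all genes tested rose and 23.3% fell, 18.9 and 20.5%, and 15 and 19.8%, in that order. BOP1, a ribosome assembly factor, stood at 39.6 ± 3.94 TPM in U87, 19.2 ± 4.05 in GSCs and 37.1 ± 2.13 in Diff. CAD, the first enzyme of pyrimidine synthesis, stood higher in both lines, at 119.8 ± 12.5 TPM in GSCs and 102.1 ± 1.37 in Diff (log2 fold changes against U87 1.05 and 0.83, limma adjusted p = 5.74e-06 and 3.42e-05). LDHA, lactate dehydrogenase, which hypoxia also induces, was far lower in both, at 1204 ± 70.9 TPM in U87, 256 ± 27.9 in GSCs and 238 ± 8.56 in Diff.

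The spread within GSCs followed 1 library. In GSCs replicate 3 the 10 genes lay a median of −0.38 on the log2 scale from the mean of the other 2 libraries, while the median of all genes tested was 0.075. The difference was −0.75 for FOS and −0.73 for both JUNB and EGR1, −0.59 for IER2, −0.40 for IER3 and −0.36 for MYC, and −0.0058 for FOSL2, the nearest to the other libraries. No library of U87 or Diff had more than 6 of the 10 genes below both of its partners. A further 41 immediate early genes did not move together in that library: 17 were below and 16 above both others, with a median of −0.013. Over all genes tested 30.9% were below and 47.2% above both others. In GSCs replicate 3, mitochondrial genes took 30.8% of TPM and RN7SL1 5.73%, against 29.96 and 5.99% in replicate 1 and 27.9 and 7.84% in replicate 2, and their part in the lower values was not tested.

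**Figure D4:**
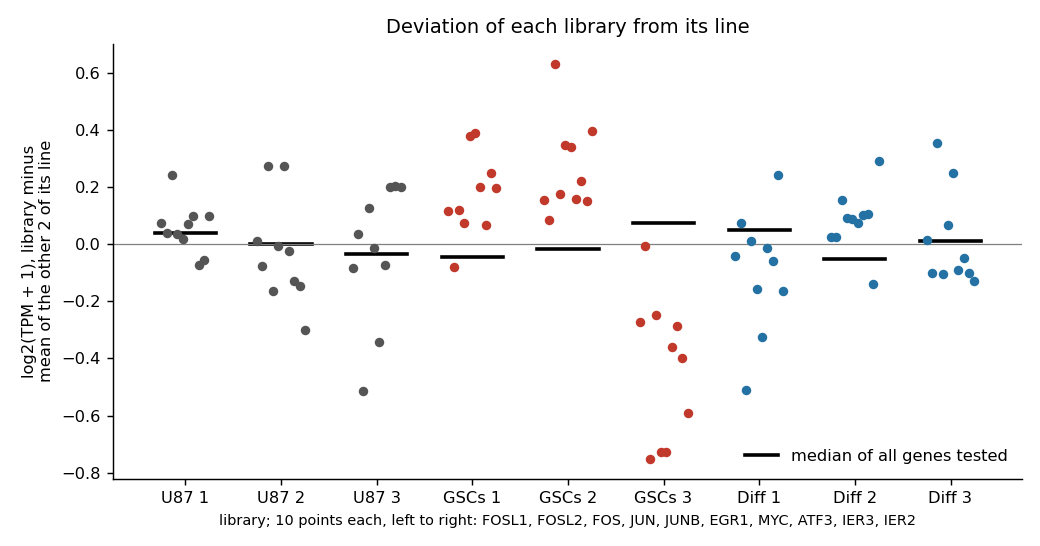
Difference in log2(TPM + 1) between each library and the mean of the other 2 of its line, 10 points for the 10 genes in the order given under the axis and a bar for the median of all genes tested. In GSCs replicate 3 all 10 points lie below 0, from −0.75 to −0.0058, while the bar lies at 0.075.

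The wider set of immediate early genes did not share 1 direction. Of 41 tested, 17 rose and 14 fell in GSCs against U87 (median 0.063), 10 rose and 18 fell in Diff against U87 (median −0.21), and 11 rose and 18 fell in Diff against GSCs (median −0.25). All genes tested gave 25.3% rising and 23.3% falling, 18.9 and 20.5%, and 15 and 19.8%, in that order. NR4A2, an orphan nuclear receptor, had the pattern of FOS and ATF3, at 1.61, 1.26 and 1.82 TPM in U87, 10.7, 12.6 and 11.8 in GSCs and 2.03, 1.93 and 2.01 in Diff. Others of the list shared it, among them NR4A1, NR4A3 and ZFP36. Their log2 fold changes were 1.12, 1.06 and 1.71 in GSCs against U87, past the test. In Diff against GSCs they were −1.33, −1.03 and −1.96, also past the test. ID3, an inhibitor of helix-loop-helix factors that BMP signals and serum induce, had the opposite pattern, at 75.3 ± 10.9, 2.87 ± 0.593 and 52.4 ± 4.85 TPM. KLF2, a zinc finger factor, was also lowest in GSCs (27.0 ± 0.847, 4.34 ± 0.155 and 13.3 ± 3.49 TPM). ERRFI1, a feedback inhibitor of the EGF receptor, was lower in both irradiated lines, at 398 ± 34.0 TPM in U87, 72.6 ± 5.11 in GSCs and 61.0 ± 2.92 in Diff. LIF, a cytokine, was highest in Diff (11.8 ± 1.42, 23.2 ± 2.45 and 83.6 ± 1.94 TPM).

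The leucine zipper relatives outside the 10 genes also split. Of 24 tested, 4 rose and 10 fell in GSCs against U87, 5 rose and 10 fell in Diff against U87, and 7 rose and 8 fell in Diff against GSCs. The last count fell from 15 to 8 without Diff replicate 1 and to 9 without Diff replicate 2. For all genes tested the shares were 25.3% rising and 23.3% falling, 18.9 and 20.5%, and 15 and 19.8%, in the same order. JDP2, a repressor that pairs with JUN, was lowest where FOS was highest, at 17.0 ± 2.50 TPM in U87, 5.01 ± 0.564 in GSCs and 15.0 ± 1.10 in Diff. MAF, a large leucine zipper factor, was near 0 in U87 (0.0129 ± 0.0112 TPM) and at 0.743 ± 0.165 in GSCs and 6.36 ± 0.318 in Diff.

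Kinases and factors upstream of these promoters gave 10 higher and 11 lower of 35 tested in GSCs against U87, 7 higher and 8 lower in Diff against U87, and 8 higher and 9 lower in Diff against GSCs. The shares over all genes tested were 25.3% higher and 23.3% lower, 18.9 and 20.5%, and 15 and 19.8%, in that order. RPS6KA2, a ribosomal S6 kinase downstream of ERK, was highest in GSCs (12.6 ± 2.66, 45.3 ± 1.17 and 15.1 ± 1.04 TPM). MAPK12, a p38 kinase, and MAP2K3, which activates p38 kinases, were higher in both lines: MAPK12 stood at 3.62 ± 0.601 TPM in U87, 14.3 ± 2.23 in GSCs and 8.72 ± 0.679 in Diff. MAP2K1, the ERK kinase MEK1, was lower in both (40.0 ± 1.20, 21.3 ± 0.462 and 15.9 ± 1.20 TPM). These are transcript levels and say nothing of kinase activity.

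Genes known to be controlled by AP-1 moved in both directions against U87 and mostly downwards from GSCs to Diff. Of 23 tested, 8 rose and 10 fell in GSCs against U87 (median 0.075), 5 rose and 10 fell in Diff against U87 (median −0.28), and 3 rose and 14 fell in Diff against GSCs (median −0.43). In all genes tested 25.3% rose and 23.3% fell, 18.9 and 20.5%, and 15 and 19.8%, in that order. MMP1, the interstitial collagenase with a TGAGTCA site in its promoter, stood at 2.65, 1.90 and 1.02 TPM in U87, 30.8, 26.5 and 39.4 in GSCs and 3.52, 2.69 and 2.92 in Diff. Its level in GSCs replicate 3 was the highest of all, unlike that of FOS. MMP3, stromelysin, was at 8.78 ± 1.58 TPM in U87, 547 ± 60.9 in GSCs and 366 ± 36.6 in Diff. F3, tissue factor, fell from 90.9 ± 6.71 TPM in U87 to 42.1 ± 3.997 in GSCs and 6.18 ± 1.06 in Diff.

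Markers of other cell types were also measured, since they can move with such genes. Blood, endothelial and epithelial markers summed to 12.4 to 12.9 TPM in U87, 22.4 to 24.4 in GSCs and 9.14 to 9.79 in Diff. In GSCs 5 of the 11 had a mean over 1 TPM, led by the endothelial genes VWF (0.527 ± 0.213, 11.4 ± 0.566 and 1.74 ± 0.121 TPM in U87, GSCs and Diff) and PECAM1 (2.77 ± 0.935, 6.25 ± 0.868 and 2.92 ± 0.738 TPM). The defining endothelial cadherin CDH5 averaged 0.223, 0.312 and 0.225 TPM, the leukocyte marker PTPRC 0.0803, 0.0829 and 0.0372, and CD3E was at 0 in U87 and Diff. Neuronal markers summed to 24.5 to 29.7 TPM in U87, 16.4 to 17.1 in GSCs and 34.0 to 36.2 in Diff, with STMN2 at 0 in all 3 lines. The sum in Diff was mostly MAP2 (7.95 ± 1.14, 8.22 ± 0.795 and 21.7 ± 1.02 TPM in U87, GSCs and Diff). SNAP25 was highest in U87 (14.5 ± 0.766, 2.95 ± 0.146 and 7.45 ± 0.729 TPM). The part of all these markers in the higher FOS, ATF3 and IER3 of GSCs was not tested, and in bulk RNA fewer cells with a transcript and less transcript per cell cannot be told apart.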

How the data were processed

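Total RNA of 9 libraries was sequenced. The authors deposited log2(TPM + 1) values for 60606 genes, and 2 to the power of these minus 1 summed to 1000000 in each library. The submitters' processing notes name FastQC 0.11.9, Trimmomatic 0.39, HISAT2 2.2.1, featureCounts 2.0.5, R 4.2.0 and GRCh38; the annotation release and the strand setting are not given in the sources used here. The sample records describe rRNA removal and directional libraries whereas the study's methods describe mRNA enrichment with oligo(dT), which would change what TPM is relative to. TPM keeps no depth, so counting error could not be given, and the spread between 3 libraries measures the precision.

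The 22909 genes that averaged over 1 TPM entered a fit with limma 3.58.1 in R 4.3.3 (eBayes with a trend), as 3 groups on log2(TPM + 1), and p-values were adjusted by Benjamini-Hochberg within each comparison. Log2 fold changes and SE are on that scale and understate changes of low genes. Past the test means an adjusted p under 0.05. Lists are described by counts and medians, without a set test. The fit was tested on simulated data. Other pseudocounts (0.1 and 0.5), filters (none, mean TPM over 5), scalings and fits were tried, and each library was left out in turn. Gene positions and overlaps are from GENCODE 29 and promoter sequences from RefSeq, both for GRCh38. Tables were made with Python 3.11.15, pandas 2.3.3 and numpy 2.4.6, and plots with matplotlib 3.10.9.

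The members and lists were chosen with earlier results of these data known. Besides the 10 members, genes named were marker genes, FOS and JUN family members, and from each list up to 4 genes per comparison with the largest absolute log2 fold change among those past the test. MNT and HSPA1B were named as well because they moved against other named genes of their lists. CEBPB and PPP1R15A were named as the other stress response genes higher in GSCs. NR4A1, NR4A3 and ZFP36 were named because they moved as NR4A2 did. For likeness, 3 protein-coding genes were chosen for each of the 3 members whose line means differed most, of which 1 is not reported here. Libraries with the same replicate number did not deviate together (r from −0.0416 to 0.0489), so the numbers were not used as pairs.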

Additional observations from a re-analysis of the deposited data

Results flagged for a closer look

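The change from U87 differed between GSCs and Diff for 5 of the 10 genes, by the limma test of the difference itself, which is the comparison of Diff with GSCs. That test was passed by 34.8% of all genes tested. The difference was −2.40 on the log2 scale for FOS (limma adjusted p = 0.000187), which was higher in 3 of 3 GSCs libraries than in every U87 and Diff library. For ATF3 it was −2.01 (limma adjusted p = 4.13e-06) and for IER3 −1.11 (limma adjusted p = 0.000218), with the same separation of libraries. MYC differed by −0.44 (limma adjusted p = 0.00794), since it was raised in both lines but further in GSCs, in 3 of 3 libraries. JUNB differed by −0.53 (limma adjusted p = 0.043), but this call was lost under 15 of 19 alternatives, and GSCs replicate 3 lay within the range of the Diff libraries. For the other 5 genes the difference did not pass the test. Groups of 3 libraries were too small for the outlier test.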

How the results depend on the processing

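Of 570 refitted fold changes of the 10 genes (30 differences under 19 alternatives), 546 kept their direction and their side of the threshold. FOS, ATF3, IER3, MYC, FOSL1 and FOSL2 kept theirs in all comparisons and alternatives run. JUNB in Diff against GSCs lost its call under 15 alternatives, with adjusted p from 6.04e-05 to 0.135 over all 19, and EGR1 in GSCs against U87 under 3. JUNB in GSCs against U87 and JUN in Diff against GSCs passed only without GSCs replicate 3. Differences that changed sign had not passed: without GSCs replicate 3, IER2 was at 0.019 in GSCs against U87 and −0.14 in Diff against GSCs, and EGR1 at −0.086 in Diff against GSCs, and without Diff replicate 2, IER2 was at −0.040 in Diff against GSCs. Over all single libraries left out, these ranged from −0.31 to 0.019 for IER2 in GSCs against U87, from −0.14 to 0.19 for IER2 in Diff against GSCs and from −0.086 to 0.29 for EGR1 in Diff against GSCs. The cause was not tested. Leaving out 1 library at a time gave 2 to 4 genes past the test and 2-fold in GSCs against U87, the 4 without GSCs replicate 3. Under the replicate block, 5 genes passed in Diff against U87 as before, and JUNB in Diff against GSCs had an adjusted p of 0.0545. Since the libraries share only a number, this is no paired test. Of the counts over the other lists 611 stayed within 1.5 times and 16 did not. Heat shock genes past the test in Diff against GSCs rose from 4 to 7 under quantile normalization, median-ratio scaling, TPM rescaled without mitochondrial genes and RN7SL1, or without GSCs replicate 3. The scalings moved the median of all genes by less than 0.1. Depth is unknown for TPM, which limits statements on genes near 0.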

Other observations

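Heat shock genes, another group that cells induce within minutes of stress, did not follow FOS and ATF3. Of 12 tested, 4 rose and 3 fell in GSCs against U87 (median 0.16), 8 rose and 1 fell in Diff against U87 (median 0.34), and 4 rose and 0 fell in Diff against GSCs (median 0.27). In limma at the same filter the last count was 7 without GSCs replicate 3. With all libraries, 25.3% of all genes tested rose and 23.3% fell, 18.9 and 20.5%, and 15 and 19.8%, in that order. HSPA8, the constitutive HSP70 chaperone, stood at 961 ± 6.01 TPM in U87, 1563 ± 76.2 in GSCs and 1466 ± 20.7 in Diff (SD, n = 3). DNAJB1 and BAG3, which heat shock factor induces, were lowest in GSCs: DNAJB1 at 66.4 ± 1.90, 42.3 ± 1.52 and 58.3 ± 2.74 TPM, and BAG3 at 103 ± 5.58, 55.1 ± 7.86 and 134 ± 5.74. HSPH1 and HSPA1B of the same list went the other way and were higher in GSCs than in U87 (log2 fold changes 0.48 and 0.26, limma adjusted p = 0.00674 and 0.0258).

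The genes whose log2 levels were most like those of FOS, ATF3 and IER3 over the 9 libraries, among 9724 protein-coding genes with a mean TPM over 5, are given as a description, since the libraries fall into 3 lines and any gene raised in GSCs alone scores high. For FOS they were MDC1 (Pearson r = 0.990), a DNA damage mediator, INTS3 (0.990) and the cation channel gene TRPV2 (0.989), of which TRPV2 stood at 11.8 ± 1.22 TPM in U87, 39.001 ± 5.46 in GSCs and 9.47 ± 1.81 in Diff. For ATF3 they were the Notch ligand gene DNER (0.997), FCHSD1 (0.996) and the elastase inhibitor gene PI3 (0.996), and PI3 ranged from 1.501 ± 0.376 TPM in U87 to 168 ± 40.0 in GSCs and 1.02 ± 0.0337 in Diff. For IER3 they included USP11 (0.988), at 51.2 ± 2.98 TPM in U87, 73.4 ± 5.33 in GSCs and 49.7 ± 1.57 in Diff, and MEIS3 (0.981), at 32.5 ± 1.12, 43.6 ± 4.84 and 29.7 ± 1.304 TPM.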
